A study of Rattus norvegicus with 12 samples.

Results

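A set of 8 genes of bile acid synthesis and transport were followed in fetal rat liver: the synthesis enzymes Cyp7a1, Cyp8b1, Cyp27a1 and Baat, the transporters Slc10a1 and Abcb11, and the nuclear receptors Nr1h4 and Nr0b2. They were taken by name from the 14497 genes that the platform annotation linked to the arrays. The probe of each gene was chosen by its brightness, the only measured value in the rule, but each of the 8 genes had exactly 1 probe, so brightness decided nothing. All 8 genes, and the wider gene lists used below, were chosen with earlier results of these data known, among them the fasting rises of Cyp7a1 and Cyp8b1. Their values are given as a description of these samples rather than as independent support.

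Liver came from Sprague Dawley rat fetuses delivered at day 19 of gestation. In the fed (control) groups, dams ate ad libitum, and in the fasted groups, dams had no food for the 48 hr before delivery, a model of intrauterine growth restriction. Each diet had 3 dams. From the livers of each diet, 3 arrays were run on total RNA and 3 on RNA from polysomes, the ribosome-loaded fraction of the messenger RNA, giving 12 Affymetrix Rat Gene 1.0 ST arrays in 4 groups of 3. The polysome preparations were pooled before extraction, and total and polysome RNA were extracted by different chemistries, so fraction and extraction method cannot be told apart. Fetal sex and the hour of collection were not given in the sources used here. Values are log2 of the deposited intensity plus 1, and each group is written as diet and fraction (fed total, for example), with the array number after it. The labels call the arrays of a group biological replicates, and 3 per group limits the precision of every difference below.

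Bile acids are made from cholesterol in hepatocytes. Cyp7a1 sets the rate of the classic route and Cyp8b1 directs its product towards cholic acid, whereas Cyp27a1, a mitochondrial sterol hydroxylase, opens the alternative route and oxidises the side chain, and Baat joins the finished acid to taurine or glycine. Slc10a1 (NTCP) takes bile acids up from blood and Abcb11 (BSEP) pumps them into the bile canaliculus. Bile acids bind the receptor FXR, the product of Nr1h4, which induces Nr0b2 (SHP), a repressor of Cyp7a1 and Cyp8b1 transcription.

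The arrays were alike in overall signal, with median intensities of 101.3 to 108.3. Arrays of one group correlated at 0.9914 to 0.9961 over all 28826 probes, those of the other diet in the same fraction at 0.9917 to 0.9948, and those of the other fraction at 0.9816 to 0.988. The tissue label was checked with 14 hepatocyte markers, including Alb, Afp and Apob, whose summed intensity was 158988 to 162392 in fed total, 133726 to 147983 in fed polysome, 159731 to 166628 in fasted total and 139950 to 143128 in fasted polysome. None of the 14 passed the test between diets in either fraction (smallest limma adjusted p = 0.346 in total and 0.162 in polysome RNA). Exocrine pancreas markers summed to 1464 to 4938 in fed total and 1336 to 1344 in fasted total, so the fed total arrays varied most in this list. The samples are whole liver, in which fewer cells of a type and less RNA per cell cannot be told apart.

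Of the 4 synthesis enzymes, 3 were higher in liver of fasted dams in both fractions, and neither transporter nor the tested receptor passed the test. Cyp7a1 rose 2.17-fold in total RNA and 2.09-fold in polysome RNA, Cyp8b1 rose 2.19-fold and 1.90-fold, and Cyp27a1 rose 1.74-fold and 1.49-fold. Of the 8 genes, 7 were bright enough to be tested and 3 were called higher in each fraction, where a call is a limma adjusted p under 0.05 over the 10174 genes tested. Over all tested genes, 0.737% were called higher in total RNA and 1.59% in polysome RNA, and 0.374% were higher in both. The median difference of the 7 genes was 0.51 in total RNA and 0.58 in polysome RNA on the log2 scale, beside 0.001 and 0.016 over all genes tested. Because the genes were chosen with earlier results of these data known, these counts and medians describe the set and do not test it.

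**Figure D1:**
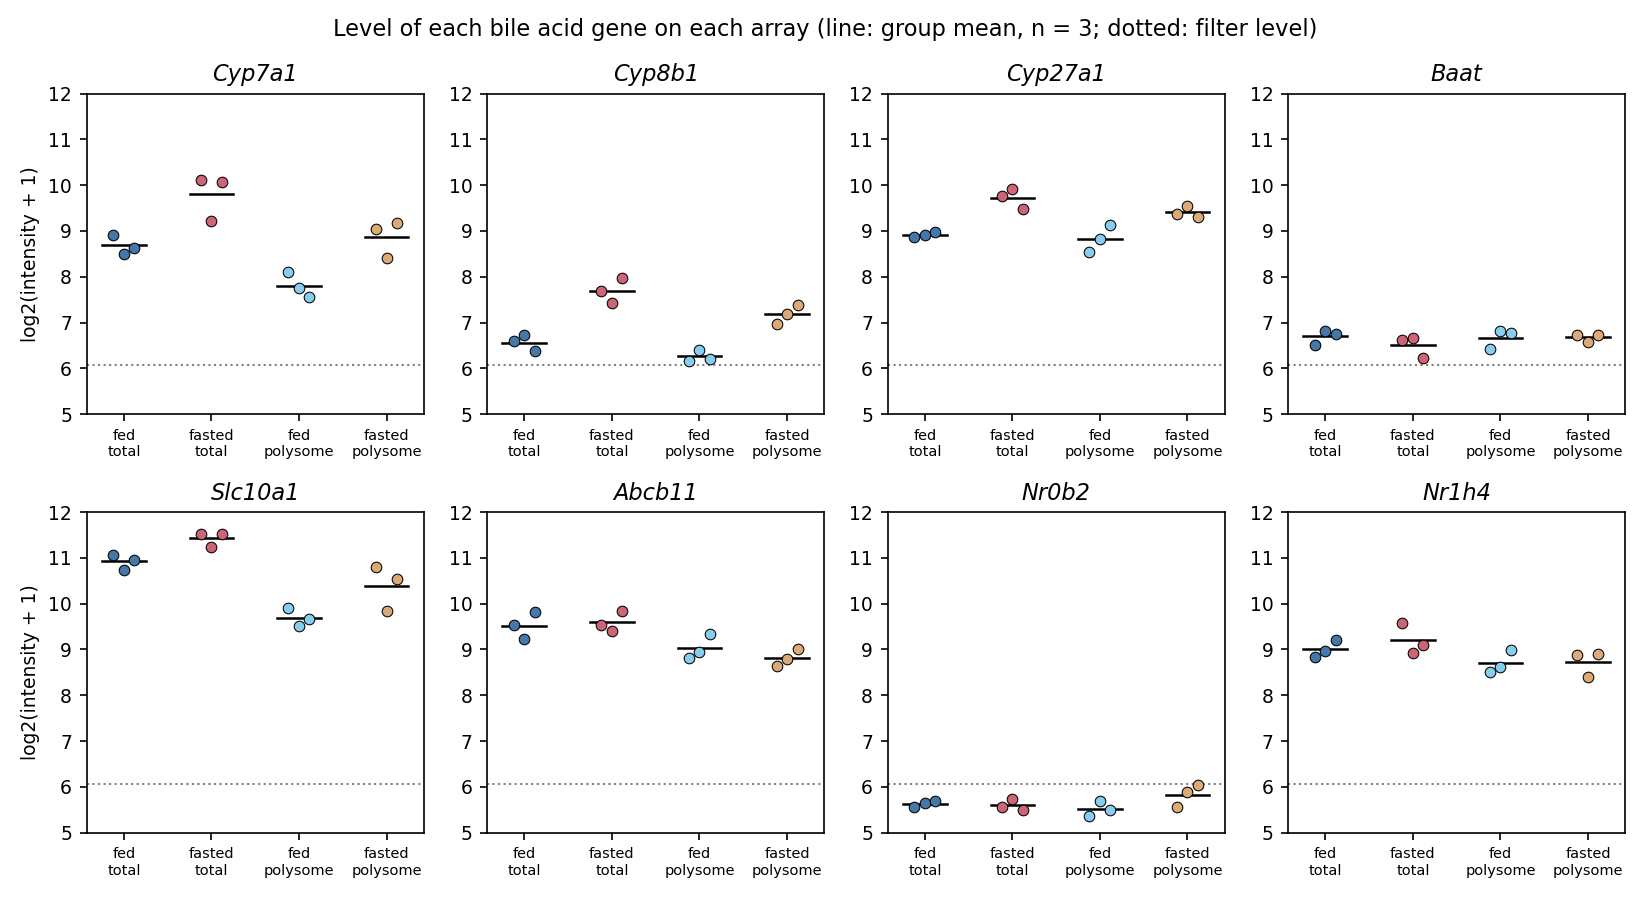
Level of each of the 8 genes on each array, as log2(intensity + 1), in the 4 groups; points are arrays in the order of their numbers, the line is the group mean (n = 3) and the dotted line is the level below which genes were not tested (6.07). Every fasted array of Cyp7a1, Cyp8b1 and Cyp27a1 lies above every fed array of the same fraction. The same holds for 12.9% of all genes tested in total RNA and 12.4% in polysome RNA. All 12 points of Nr0b2 lie under the dotted line.

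In total RNA, Cyp7a1 read 8.92, 8.51 and 8.63 on the fed arrays and 10.11, 9.23 and 10.07 on the fasted arrays. In polysome RNA it read 8.10, 7.75 and 7.57 on the fed arrays and 9.04, 8.41 and 9.17 on the fasted arrays. All 3 fasted arrays lay above all 3 fed arrays in each fraction, with the second array the lowest of both fasted groups. The rise was 1.12 ± 0.24 in total RNA (difference in log2 ± SE, n = 3 against 3, 95% interval 0.60 to 1.63, limma adjusted p = 0.045) and 1.06 ± 0.24 in polysome RNA (0.55 to 1.58, limma adjusted p = 0.0428). Group means ran from 7.81 ± 0.27 in fed polysome through 8.69 ± 0.21 in fed total and 8.87 ± 0.41 in fasted polysome to 9.80 ± 0.50 in fasted total (SD, n = 3). The 2 middle groups overlapped.

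Both Cyp7a1 calls sat close to the threshold. In total RNA the limma adjusted p was 0.0922, 0.123 and 0.117 without fed total 1, 2 and 3, 0.175 and 0.1 without fasted total 1 and 3, 0.0665 and 0.0506 without fed polysome 2 and 3, and 0.0592 and 0.0517 without fasted polysome 1 and 3. In polysome RNA it was 0.0519, 0.0548 and 0.0591 without fed total 1, 2 and 3, 0.124 and 0.127 without fed polysome 2 and 3, and 0.157 and 0.145 without fasted polysome 1 and 3. Here and below, leaving out an array that a difference does not use leaves that difference unchanged and moves only its SE and adjusted p. The Cyp7a1 rise thus stayed at 1.12 in total RNA without a polysome array and at 1.06 in polysome RNA without a total array. The size of the rise stayed between 0.96 and 1.40 log2 in total RNA and between 0.92 and 1.44 in polysome RNA over all alternatives run. Of 14 tested genes of the circadian clock, which governs the daily rhythm of Cyp7a1 in adult liver, 12 did not pass in total RNA and 11 did not on polysomes. In total RNA, Nr1d2 rose (0.89, limma adjusted p = 0.00998) and Cry1 fell (-0.61, limma adjusted p = 0.014), beside 0.737% of all genes called higher and 0.295% lower. In polysome RNA, Nr1d1 (0.86, limma adjusted p = 0.0126) and Nr1d2 (1.06, limma adjusted p = 0.00446) rose and Cry1 fell (-0.43, limma adjusted p = 0.0428), beside 1.59% and 0.423%. The summed intensity of the 15 clock genes on the array was 6700 to 7277 in fed total, 6534 to 6971 in fasted total, 6914 to 7568 in fed polysome and 7143 to 7809 in fasted polysome. Their part in the Cyp7a1 values was not tested.

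Cyp8b1 gave the most stable rise of the set. Its level in total RNA was 6.60, 6.72 and 6.37 on the fed arrays and 7.69, 7.43 and 7.97 on the fasted arrays. On polysomes it was 6.17, 6.40 and 6.22 in fed and 6.98, 7.19 and 7.39 in fasted liver. The diets did not overlap in either fraction, as for 12.9% of all genes in total RNA and 12.4% in polysome RNA in this direction. The lowest fasted polysome array still exceeded the highest fed total array. The rise was 1.13 ± 0.14 in total RNA (SE, 95% interval 0.83 to 1.44, limma adjusted p = 0.00289) and 0.92 ± 0.14 in polysome RNA (0.62 to 1.23, limma adjusted p = 0.0126). It passed under all 22 alternatives in total RNA and under 21 of 22 in polysome RNA, where leaving out fasted polysome 3 gave a limma adjusted p of 0.0638. The fed polysome mean, 6.26 ± 0.12 (SD, n = 3), lay near the filter level of 6.07, and adding 1 before taking logs understates changes of dim probes.

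Cyp27a1 was raised by a smaller amount. The fed total arrays read 8.88, 8.90 and 8.98 and the fasted total arrays 9.76, 9.92 and 9.48. The fed polysome arrays spread more widely, at 8.55, 8.83 and 9.12, under fasted polysome arrays at 9.37, 9.54 and 9.31. Diets did not overlap in either fraction, beside 12.9% of all genes in total RNA and 12.4% in polysome RNA in this direction. The gap between fed polysome 3 and the lowest fasted polysome array was narrow. The rise was 0.80 ± 0.14 in total RNA (SE, 95% interval 0.50 to 1.09, limma adjusted p = 0.0181) and 0.58 ± 0.14 in polysome RNA (0.28 to 0.87, limma adjusted p = 0.0496).

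The total RNA call of Cyp27a1 was lost without fed total 1, 2 or 3 (limma adjusted p = 0.0727, 0.0537 and 0.0526) and without fasted total 1 or 2 (0.0749 and 0.0771). The polysome call was lost without fed total 1, 2 or 3 (0.0628, 0.0672 and 0.0649), fasted total 1 or 2 (0.0645 and 0.0528), fed polysome 1 or 2 (0.0669 and 0.136) and fasted polysome 1, 2 or 3 (0.147, 0.0634 and 0.126). Without a total RNA array, the polysome difference of Cyp27a1 itself stayed at 0.58. With fed polysome 1 and fasted polysome 2 both left out, the polysome difference of Cyp27a1 was 0.36 (limma adjusted p = 0.107).

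Baat did not pass the test. In total RNA it read 6.50, 6.83 and 6.76 in fed and 6.62, 6.67 and 6.23 in fasted liver, and on polysomes 6.43, 6.82 and 6.77 in fed and 6.73, 6.58 and 6.73 in fasted liver. The diets overlapped in both fractions. The difference was -0.19 ± 0.13 in total RNA (SE, 95% interval -0.48 to 0.09, limma adjusted p = 0.524) and 0.01 ± 0.13 in polysome RNA (-0.28 to 0.29, limma adjusted p = 0.985), and both upper bounds lie below the Cyp8b1 values of 1.13 and 0.92.

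**Figure D2:**
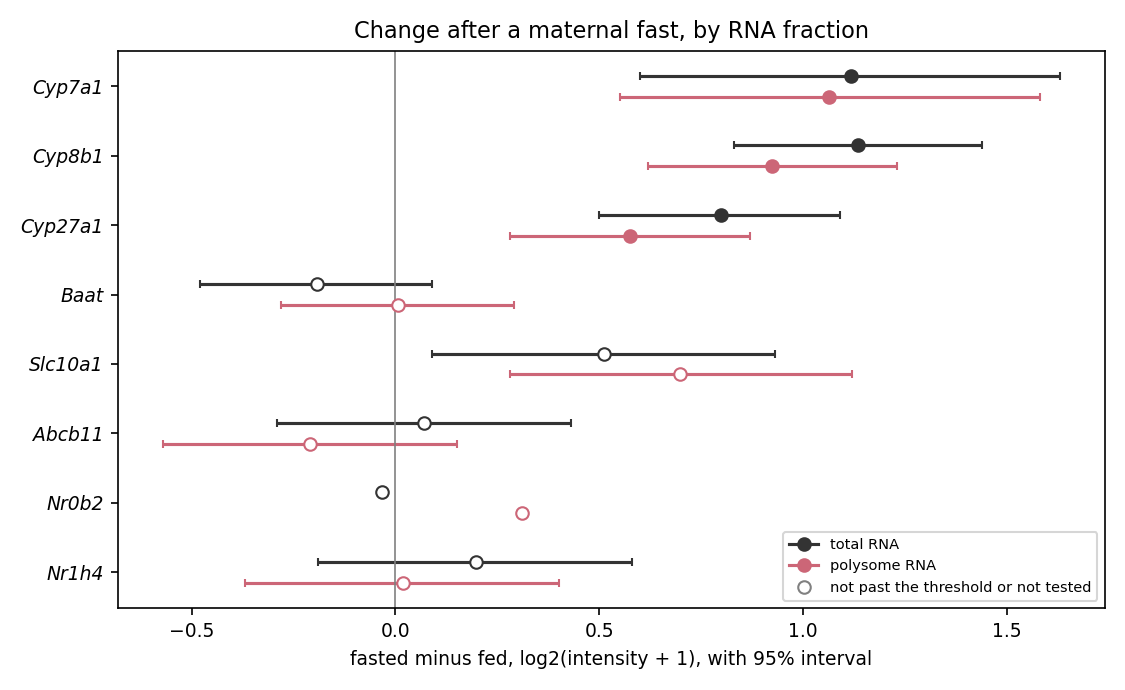
Fasted minus fed difference of each gene in total and polysome RNA, in log2(intensity + 1), with 95% intervals from limma; filled points passed the threshold, open points did not or were not tested (Nr0b2, drawn with no interval). Cyp7a1, Cyp8b1 and Cyp27a1 are filled in both fractions, and the Slc10a1 intervals, 0.09 to 0.93 and 0.28 to 1.12, lie above 0 although its adjusted p missed the threshold.

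The bases before the start of transcription are shown for the members of this enzyme group that RefSeq covered: Cyp8b1 and Cyp27a1, which rose together, and Baat, which did not pass. The RefSeq table (GRCr8) held a promoter for 5 of the 8 genes, and the 3 others (Cyp7a1, Abcb11 and Nr1h4) are named only. Each line gives 250 bases 5′ to 3′ ending just before the annotated start, at chr8:130457593-130457842, minus strand, for Cyp8b1, chr9:83713282-83713531, plus strand, for Cyp27a1 and chr5:68656138-68656387, minus strand, for Baat. Capitals mark matches on either strand to 4 short motifs: AGGTCA, a nuclear receptor half-site, CAAGG, the core of the Nr5a2 site, CAAAGTCCA, an Hnf4a site, and GTTAAT, an Hnf1 half-site.
Cyp8b1: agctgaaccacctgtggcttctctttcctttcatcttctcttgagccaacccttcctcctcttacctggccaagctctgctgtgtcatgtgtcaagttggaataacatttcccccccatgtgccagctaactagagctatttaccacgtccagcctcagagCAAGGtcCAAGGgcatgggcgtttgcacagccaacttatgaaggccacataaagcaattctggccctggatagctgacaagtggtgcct
Cyp27a1: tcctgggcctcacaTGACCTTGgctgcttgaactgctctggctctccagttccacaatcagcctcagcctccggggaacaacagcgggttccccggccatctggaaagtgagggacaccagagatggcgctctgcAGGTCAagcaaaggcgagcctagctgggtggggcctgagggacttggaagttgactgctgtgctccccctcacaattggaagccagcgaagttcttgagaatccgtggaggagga
Baat: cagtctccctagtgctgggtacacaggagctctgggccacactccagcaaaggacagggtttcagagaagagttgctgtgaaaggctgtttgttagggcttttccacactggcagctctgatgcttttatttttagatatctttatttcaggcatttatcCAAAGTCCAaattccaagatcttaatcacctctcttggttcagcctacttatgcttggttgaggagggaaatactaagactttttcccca

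The Cyp8b1 window held CAAGG at 89 to 85 and again at 82 to 78 bases before the start. The Cyp27a1 window held AGGTCA at 115 to 110 bases before the start and, on the minus strand, at 236 to 231, where it overlapped a minus strand CAAGG at 233 to 229. Baat held CAAAGTCCA at 90 to 82 bases before the start. Of the 33469 rat promoter windows of this length, 46.3% held CAAGG, 14.1% AGGTCA, 6.45% GTTAAT and 0.338% CAAAGTCCA, so the first of these letters occur widely. Among the other members, the Slc10a1 window held AGGTCA at 197 to 192 and 99 to 94, CAAGG at 82 to 78 and GTTAAT at 20 to 15, and the Nr0b2 window held CAAGG at 199 to 195, 68 to 64 and 35 to 31. These are matches of letters, and no binding was measured here.

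The uptake transporter Slc10a1 read higher after the fast without passing the test. Its fed total arrays read 11.06, 10.74 and 10.96 and its fasted total arrays 11.53, 11.24 and 11.53, with no overlap between diets. Its fed polysome arrays read 9.91, 9.51 and 9.67 and its fasted polysome arrays 10.81, 9.84 and 10.53, where fasted polysome 2 fell below fed polysome 1. The difference was 0.51 ± 0.20 in total RNA (SE, limma adjusted p = 0.219) and 0.70 ± 0.20 in polysome RNA (limma adjusted p = 0.072). Over all genes tested, fasted arrays lay above fed arrays without overlap for 12.9% in total RNA and 12.4% in polysome RNA. Without fasted polysome 2 the polysome difference was 0.97 (limma adjusted p = 0.00781). Leaving out fed polysome 1 as well, a setting chosen after seeing the data, gave 1.08 (limma adjusted p = 0.0039). In total RNA the unchanged difference then had a limma adjusted p of 0.048. Of 23 alternatives, Slc10a1 passed in 3 in polysome RNA (limma adjusted p = 0.0039 to 0.261) and in 1 in total RNA (0.048 to 0.474).

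The canalicular pump Abcb11 overlapped between diets in both fractions. It read 9.53, 9.23 and 9.81 in fed total, 9.54, 9.41 and 9.83 in fasted total, 8.81, 8.94 and 9.33 in fed polysome and 8.64, 8.80 and 9.02 in fasted polysome. The difference was 0.07 ± 0.17 in total RNA (SE, 95% interval -0.29 to 0.43, limma adjusted p = 0.886) and -0.21 ± 0.17 in polysome RNA (-0.57 to 0.15, limma adjusted p = 0.513). Its intervals leave out a 2-fold change in either direction in both fractions.

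The FXR gene Nr1h4 read 8.83, 8.97 and 9.20 in fed total and 9.57, 8.93 and 9.10 in fasted total. On polysomes it read 8.51, 8.63 and 8.98 in fed and 8.87, 8.40 and 8.89 in fasted liver. The diets overlapped in both fractions, with differences of 0.20 ± 0.18 (SE, limma adjusted p = 0.648) and 0.02 ± 0.18 (limma adjusted p = 0.966). Nr0b2, the repressor that FXR induces, was below the filter, with a mean of 5.65 over the 12 arrays, and was not tested in the main fit. It read 5.56, 5.64 and 5.69 in fed total, 5.57, 5.73 and 5.50 in fasted total, 5.37, 5.70 and 5.50 in fed polysome and 5.57, 5.88 and 6.05 in fasted polysome. With no filter, its difference between diets was -0.03 in total RNA (limma adjusted p = 0.949) and 0.31 in polysome RNA (limma adjusted p = 0.218). At these dim levels a change could have been missed.

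Whether the fasting change differed between fractions was tested as polysome change minus total change. None of the 7 tested genes passed, and neither did any of the 10174 genes with limma, of which 549 had an unadjusted p under 0.05; none of the 7 was among them. The difference was -0.05 for Cyp7a1 (95% interval -0.78 to 0.68, limma adjusted p = 0.986), -0.21 for Cyp8b1 (-0.64 to 0.22, limma adjusted p = 0.902) and -0.22 for Cyp27a1 (-0.64 to 0.19, limma adjusted p = 0.897). For Slc10a1 it was 0.19 (-0.41 to 0.78, limma adjusted p = 0.942). These intervals are wide, so equal changes in the 2 fractions are not shown.

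In the comparison of fractions, several of the genes read lower on polysomes than in total RNA at both diets. Of the 7 tested, 3 were lower in fed dams (Cyp7a1, Slc10a1 and Abcb11) and 5 in fasted dams (these and Cyp8b1 and Nr1h4), and none was higher. Over all genes tested, 19.4% were called lower in fed and 18.2% in fasted dams. The median of the 7 was -0.30 and -0.51 log2, beside 0.042 and 0.054 over all genes. These differences are relative to the other genes on arrays that were scaled together, so they do not give the share of a message that is on polysomes.

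**Figure D3:**
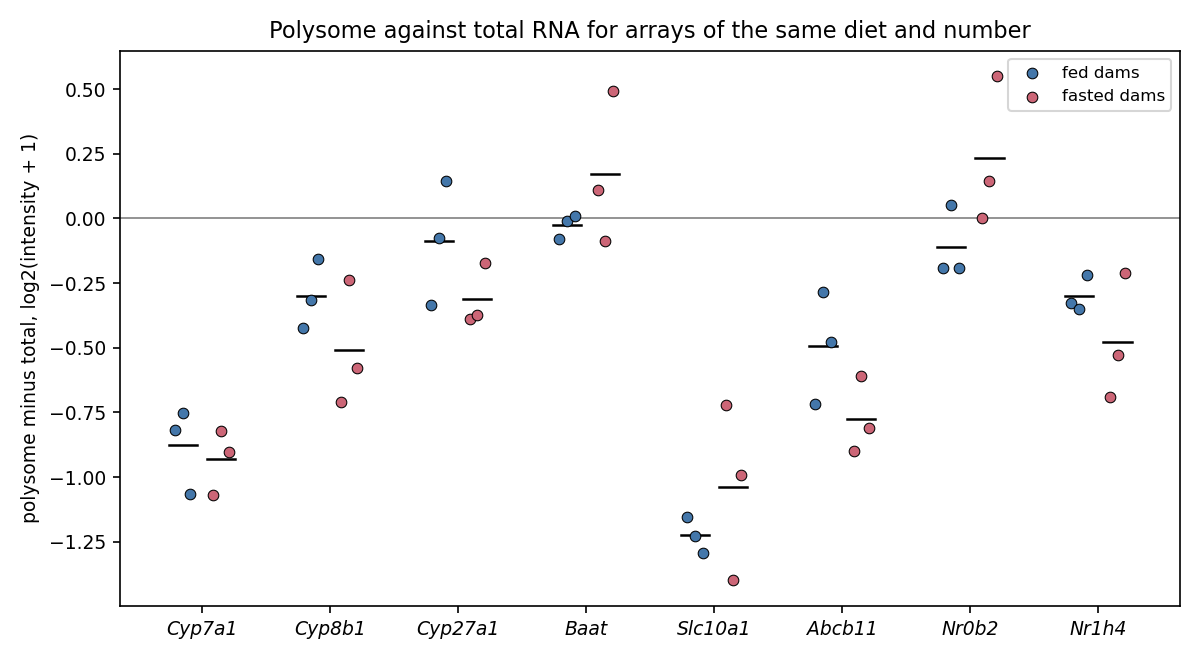
Polysome minus total difference, in log2(intensity + 1), for arrays of the same diet and number (3 points per gene and diet; line, mean of the 3). All 6 points of Cyp7a1, Cyp8b1, Slc10a1, Abcb11 and Nr1h4 lie below 0, whereas Baat has 3 on either side.

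Slc10a1 had the widest gap among the members. Its fed total arrays exceeded its fed polysome arrays 2.34-fold (polysome minus total -1.22 ± 0.20, limma adjusted p = 0.000258), and the gap in fasted dams was 2.05-fold (-1.04 ± 0.20, limma adjusted p = 0.000825). Arrays with the same number differed by -1.40 to -0.72 in the 6 pairs, and the fractions did not overlap at either diet, as for 23.5% of all genes in fed and 21.5% in fasted dams in this direction. Cyp7a1 was lower on polysomes by 1.84-fold in fed dams (-0.88 ± 0.24, limma adjusted p = 0.00941) and 1.91-fold in fasted dams (-0.93 ± 0.24, limma adjusted p = 0.00665), with pairs between -1.07 and -0.75. Both genes kept these calls under all alternatives run.

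Abcb11 was lower on polysomes by -0.49 ± 0.17 in fed dams (SE, limma adjusted p = 0.0283), where the fractions overlapped, and by -0.77 ± 0.17 in fasted dams (limma adjusted p = 0.00212), where they did not. The fed call was lost without fed total 1 or 3 (0.064 and 0.131) and without fed polysome 1 or 2 (0.106 and 0.0858), as adjusted p. Cyp8b1 differed by -0.30 ± 0.14 in fed dams (limma adjusted p = 0.101) and was lower by -0.51 ± 0.14 in fasted dams (limma adjusted p = 0.00977). Nr1h4 differed by -0.30 ± 0.18 in fed dams (limma adjusted p = 0.198) and was lower by -0.48 ± 0.18 in fasted dams (limma adjusted p = 0.0444). Without fasted total 1 or 3, fasted polysome 2, fed total 2 or fed polysome 2, the adjusted p of Nr1h4 in fasted dams was 0.204, 0.0601, 0.18, 0.0546 and 0.0546, and with arrays centred on their median it was 0.0661.

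With the liver of origin as a fixed block, taking equal numbers within a diet as 1 liver, 2 more genes passed in fed dams, Cyp8b1 (limma adjusted p = 0.0252) and Nr1h4 (limma adjusted p = 0.0214). The same block added Cyp27a1 in fasted dams (limma adjusted p = 0.0194), and so did the block as a random term (limma adjusted p = 0.0393). The labels do not say whether a number marks the same liver in both fractions. Polysome preparations were also pooled before extraction, so the match to 1 liver is an assumption. Without a block Cyp27a1 differed by -0.09 ± 0.14 in fed dams (SE, limma adjusted p = 0.639) and -0.31 ± 0.14 in fasted dams (limma adjusted p = 0.0823), and 5 of its 6 pairs were lower on polysomes. Cyp27a1 also passed in fasted dams without fasted total 3 (0.0279), fed polysome 1 (0.042) or fed polysome 3 (0.0434). Baat differed by -0.03 ± 0.13 in fed dams (limma adjusted p = 0.893) and 0.17 ± 0.13 in fasted dams (limma adjusted p = 0.317). Nr0b2, tested without the filter, differed by -0.11 (limma adjusted p = 0.554) and 0.23 (limma adjusted p = 0.175).

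Markers of liver cell types were read in the same way, beside the all-gene shares called lower on polysomes of 19.4% in fed and 18.2% in fasted dams. Of the 14 hepatocyte markers, 8 were lower on polysomes in fed dams and 10 in fasted dams, with medians of -0.21 and -0.19 log2. Lower calls were made for 7 and 10 of 10 endothelial markers (medians -0.62 and -0.65), 7 and 8 of 11 macrophage markers (-0.68 and -0.61) and 8 and 7 of 10 stellate markers (-0.77 and -0.79). Erythroid markers did not share this direction, with 3 of 10 higher and 1 lower at each diet (medians -0.01 and 0.01). Of 11 neutrophil markers, 4 and 3 were lower and 2 and 2 higher. Of 7 cholangiocyte markers, 2 and 2 were lower and 1 and 1 higher. Higher calls were also made for 1 hepatocyte marker at each diet, 1 macrophage marker in fasted dams and 1 stellate marker in fed dams. Over all genes tested, 24.1% were called higher in fed and 25.5% in fasted dams.

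Between diets, the summed intensities of some marker lists were higher in fasted liver. Endothelial markers summed to 6533 to 7168 in fed and 8056 to 8158 in fasted total RNA, and to 4391 to 4526 and 4742 to 5098 on polysomes. Of the 10, 3 rose in total RNA (Pecam1, Esam and Fcgr2b, by 0.43, 0.40 and 0.60 log2, limma adjusted p = 0.0428, 0.042 and 0.0429) and 1 on polysomes, beside 0.737% and 1.59% of all genes. Macrophage markers summed to 8919 to 9369 in fed and 9862 to 11057 in fasted total RNA, and to 6459 to 6753 and 7458 to 7765 on polysomes. All 11 had positive differences in total RNA, where 0 passed (smallest limma adjusted p = 0.0789), and 2 rose on polysomes. The 8 cholangiocyte markers on the array summed to 1596 to 1684 in fed and 1808 to 2101 in fasted total RNA, and to 1570 to 1644 and 1825 to 1843 on polysomes. Of the 7 tested, 0 passed in either fraction (smallest limma adjusted p = 0.209 and 0.125). In total RNA 4 of the 7 had positive and 3 negative differences (median 0.07 log2), and on polysomes 6 and 1 (median 0.09). The sums of the endothelial, macrophage and cholangiocyte lists did not overlap between diets in either fraction. Of 10 stellate markers, 0 passed in total RNA and 2 rose on polysomes, where their sums overlapped (2333 to 2751 in fed and 2535 to 2876 in fasted liver). None of 10 erythroid or 11 neutrophil markers passed in either fraction (smallest limma adjusted p = 0.303 and 0.232), and of 11 exocrine pancreas markers Cpa1 fell in total RNA (-1.98, limma adjusted p = 0.0486). The part of these markers in the values of the bile acid genes was not tested.

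The wider pathway was described from a list of 70 further genes, of which 64 were on the array and 50 were tested. After the fast, 2 of 14 other synthesis enzymes rose in total RNA and 1 in polysome RNA, whereas 0 of 12 other transporters passed in total RNA and 2 fell in polysome RNA. Over all genes tested, 0.737% were called higher and 0.295% lower in total RNA, and 1.59% higher and 0.423% lower in polysome RNA. None of 24 other regulators passed in either fraction (smallest limma adjusted p = 0.112 in total and 0.0511 in polysome RNA). Medians of the synthesis enzymes were 0.20 and 0.13 log2 in the 2 fractions, those of the transporters 0.06 and -0.10, and those of the regulators 0.12 and 0.08.

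**Figure D4:**
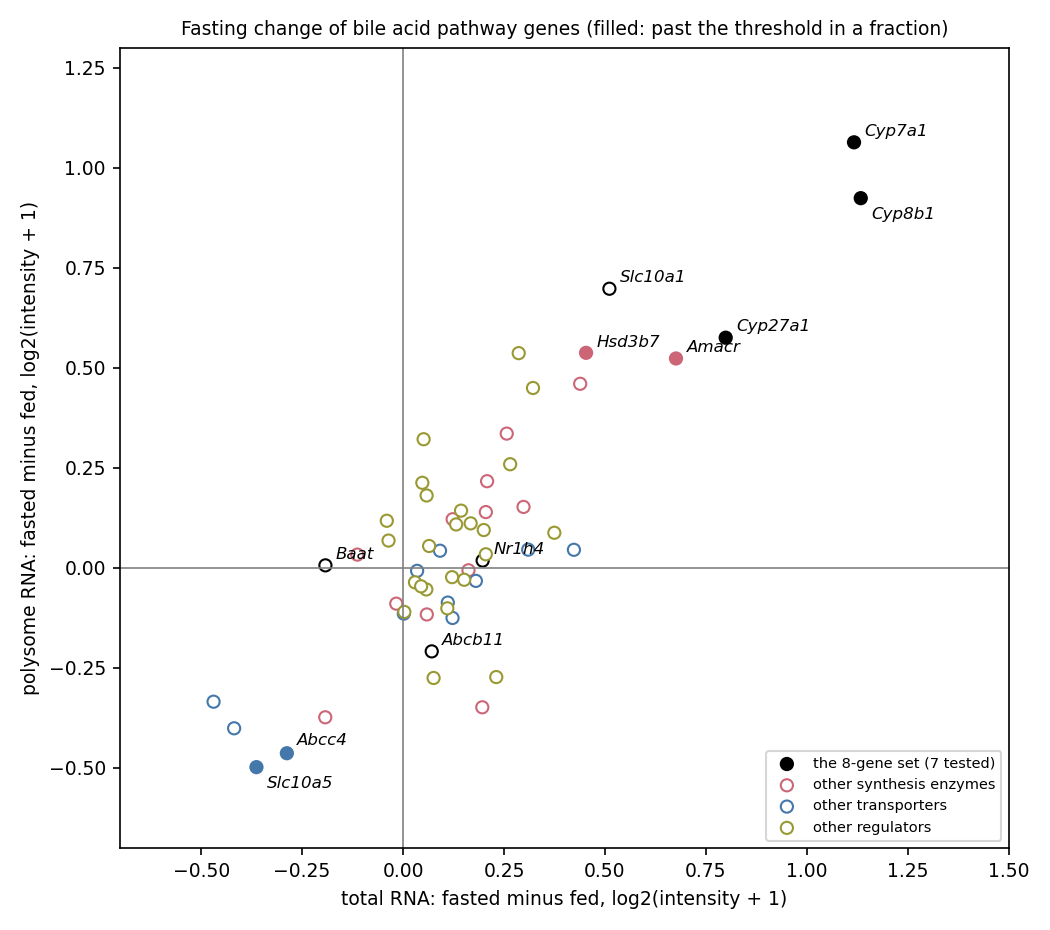
Fasting change in total RNA (horizontal) against polysome RNA (vertical), in log2(intensity + 1), for the 7 tested members (black) and 50 other pathway genes by role; filled points passed the threshold in at least 1 fraction. Hsd3b7 and Amacr are the filled synthesis enzymes at upper right, and Slc10a5 and Abcc4 the filled transporters at lower left.

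Hsd3b7, which acts just after Cyp7a1 in the classic route, read 8.72, 8.90 and 8.88 in fed total and 9.27, 9.39 and 9.20 in fasted total. It rose by 0.45 ± 0.10 (SE, limma adjusted p = 0.0465) there and by 0.54 ± 0.10 (limma adjusted p = 0.023) on polysomes, from 8.61, 8.53 and 8.70 to 9.31, 8.94 and 9.20. The diets did not overlap in either fraction, beside 12.9% of all genes in total RNA and 12.4% in polysome RNA in this direction. The total RNA call was lost without any 1 of the 6 total RNA arrays, fed polysome 2 or 3 or fasted polysome 3 (limma adjusted p = 0.0521 to 0.164), and the polysome call without fed polysome 2 or 3 or fasted polysome 1 or 3 (0.0519 to 0.104).

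Amacr, the racemase of side chain shortening, read 9.17, 8.94 and 9.37 in fed total and 10.01, 9.65 and 9.84 in fasted total, a rise of 0.68 ± 0.14 (SE, limma adjusted p = 0.0431). On polysomes the difference was 0.52 (limma adjusted p = 0.0686), and it passed without fed polysome 3 (0.0475). Its total RNA call held without fed polysome 1 or 3 and was lost without any other single array (limma adjusted p = 0.0526 to 0.173). Slc27a5, the bile acid ligase, differed by 0.20 in total RNA (limma adjusted p = 0.782) and -0.35 in polysome RNA (limma adjusted p = 0.492), with fed total arrays spread from 8.36 to 9.67. Cyp7b1, of the alternative route, was below the filter, with group means of 6.44 (fed) and 6.43 (fasted) in total RNA and 5.61 (fed) and 5.60 (fasted) on polysomes.

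Slc10a5, an orphan relative of Slc10a1, fell by 0.50 log2 on polysomes (limma adjusted p = 0.0428), from 7.35, 7.37 and 7.65 in fed to between 6.81 (fasted polysome 1) and 7.05 (fasted polysome 2) in fasted liver. Abcc4, an exporter of the basolateral membrane, fell by 0.46 log2 (limma adjusted p = 0.0451), from 8.31, 8.57 and 8.73 to 8.02, 8.08 and 8.12. In both genes the polysome arrays of the 2 diets did not overlap, as for 8.38% of all genes tested in this direction. In total RNA the differences were -0.36 (limma adjusted p = 0.13) and -0.29 (limma adjusted p = 0.21). The Slc10a5 call was lost without any fed total array, fasted total 1, fed polysome 2 or 3 or fasted polysome 1 or 3 (limma adjusted p = 0.0507 to 0.163), and the Abcc4 call without any fed total array, fasted total 2 or 3, fed polysome 2 or 3 or fasted polysome 1 or 3 (limma adjusted p = 0.0517 to 0.161).

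Abcc3, an exporter towards blood, differed by 0.42 in total RNA (limma adjusted p = 0.0606) and 0.05 in polysome RNA (limma adjusted p = 0.839), and the total RNA difference passed without fasted polysome 2 (0.025). Abcc2, a canalicular exporter, differed by 0.31 (limma adjusted p = 0.38) in total RNA, and Slco1b2, a sinusoidal uptake carrier, by 0.09. Among regulators, the receptor Fgfr4, through which gut FGF represses Cyp7a1, differed by 0.08 in total RNA (limma adjusted p = 0.835) and -0.28 in polysome RNA (limma adjusted p = 0.257). With fed polysome 1 and fasted polysome 2 both left out, Fgfr4 differed by -0.49 in polysome RNA (limma adjusted p = 0.0345). That setting was chosen after seeing the data, and Fgfr4 passed in only 1 of 23 alternatives there (highest limma adjusted p = 0.615). Nr5a2, an activator of Cyp7a1 and Cyp8b1, differed by 0.17 (limma adjusted p = 0.402) and 0.11 (limma adjusted p = 0.532), and Hnf4a by 0.06 and 0.05. The FGF co-receptor Klb was not named in the platform annotation used here.

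Between fractions, 5 of 12 other transporters were lower on polysomes in fed dams and 9 in fasted dams, and 0 were called higher, although 2 had positive differences in fed dams. Over all genes tested, 19.4% and 18.2% were called lower. Slco1b2 was lower by -0.84 and -0.89 (limma adjusted p = 0.00025 and 0.000159) and Atp8b1, the canalicular flippase, by -0.53 and -0.73 (limma adjusted p = 0.000192 and 1.54e-05). Of 24 other regulators, 10 were higher on polysomes and 1 lower in fed dams, and 7 higher and 2 lower in fasted dams. Nr5a2 was higher by 0.46 and 0.40 (limma adjusted p = 0.00144 and 0.00342) and Nr2f2 by 0.60 and 0.54 (limma adjusted p = 0.000118 and 0.000276). The all-gene shares called higher were 24.1% and 25.5%. Of the 14 other synthesis enzymes, 2 were higher and 3 lower in fed dams, and 2 higher and 4 lower in fasted dams, beside the same all-gene shares. Acot8 was higher by 0.58 and 0.51, whereas Cyp39a1 was lower by -0.58 and -0.76 and Slc27a2 by -0.49 and -0.63.

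Among the 8 genes, patterns over the 12 arrays were compared by Pearson's r, which here mixes the group differences with variation inside groups and is given as a description. Cyp7a1 was most like Slc10a1 (r = 0.90, and 0.79 after subtracting group means) and Cyp8b1 (0.88, and 0.35 within groups). Cyp8b1 and Cyp27a1 had r = 0.83, but -0.43 within groups, and Cyp7a1 and Cyp27a1 had 0.65 and -0.75. The -0.75 was the most negative within-group value of all pairs among the 8 genes. Total and polysome arrays of equal number, which may share a liver, were counted in it as separate points.

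Over all 10174 genes tested, the 5 most like Cyp7a1 on the 12 arrays were Mocs1 (r = 0.958), Sult1a1 (0.951), Rab2b (0.951), Sgms1 (0.95) and Acer2 (0.948). After subtracting group means, their r ranged from 0.697 for Sult1a1 to 0.878 for Sgms1. The 5 most like Cyp8b1 were Cirbp (r = 0.96), Slc17a2 (0.955), Stxbp3 (0.931), Cpt1a (0.93) and Fmo5 (0.92), with 0.403 to 0.762 after subtracting group means. The same 12 arrays and 4 groups underlie all of these values.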

How the data were processed

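Intensity values of 12 Affymetrix Rat Gene 1.0 ST arrays were analysed, 1 value per probe and array, which the authors deposited after RMA, per the submitters' processing notes (the sources used here give no version). The deposited intensities ran from 3.62 to 21344 on a linear scale, so log2(value + 1) was used. Of 28826 probes, the platform table linked 15209 to 1 symbol (306 to several, 13311 not listed), and 15178 were matched to current names by Entrez id. They stood for 14497 genes, with the brightest probe kept for 494 genes that had several. Genes whose mean was below the 40th percentile of all probes (6.07) were left out, which kept 10174 genes.

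Differences were fitted with limma 3.58.1 (R 4.3.3), using 1 mean per group over the 12 arrays together, with 8 residual and 5.16 prior degrees of freedom. P-values are two-sided and Benjamini-Hochberg adjusted over the 10174 genes, with a threshold of 0.05, and fold changes are on the log2(value + 1) scale. They measure the spread among the labelled biological replicates. The script was tested on simulated data. Motifs were searched with Python 3.11.15 (pandas 2.3.3) and figures drawn with matplotlib 3.10.9.

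The members and gene lists were chosen with earlier results of these data known. All 8 members are named. Of the wider pathway, genes past the threshold were named, at most 8 with the smallest p in a comparison, plus Fgfr4, Klb, Nr5a2, Hnf4a, Cyp7b1, Slc27a5, Slco1b2, Abcc2 and Abcc3, and the 5 genes most like Cyp7a1 and Cyp8b1. Other genes of the clock and marker lists named in the text, and the pathway's median and counts, describe those lists.

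The array numbers were checked as pairs by correlating deviations from group means. Total and polysome arrays of 1 diet correlated at 0.154 to 0.362 with equal numbers (6 pairs) and at -0.219 to -0.0227 with other numbers (12 pairs). Fed and fasted arrays of 1 fraction correlated at -0.145 to 0.253 with equal numbers and at -0.237 to 0.249 with other numbers. Numbers were therefore taken to pair fractions within a diet, but not arrays across diets. The pairs were used only for differences between arrays of equal number and in the alternatives with liver as a block. The main fit had no block and treated all 12 arrays as independent, also in the tests between fractions. This pairing is an inference from the data. The alternative without 2 polysome arrays (fed 1, fasted 2) was chosen after seeing the data.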

Additional observations from a re-analysis of the deposited data

How the results depend on the processing

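Over 18 named genes, 2091 gene results were recomputed under the alternatives. Of these, 1876 kept direction and side of the threshold, 129 lost a call, 26 gained one, 60 changed sign while not past the threshold, and 0 reversed a call. In polysome RNA, the 3 members called after the fast became 1 with no filter and 1 with only the arrays compared. In fed dams, the 3 members lower on polysomes became 5 with the replicate block that takes liver as a fixed factor. Without 1 array at a time, the number of members called ranged from 1 to 3 for fasting in total RNA, 0 to 3 for fasting in polysome RNA, 0 to 0 for the difference between the fasting effects, 2 to 3 for polysome against total RNA in fed dams and 4 to 6 in fasted dams. Over all genes, the fasting calls in total RNA (105) were 57 with no filter, 42 with only the arrays compared and 17 to 147 without 1 array. Those in polysome RNA (205) were 93, 40 and 11 to 755, and 341 with a filter at the 60th percentile, 394 with trend and robust priors, and 1263 without fed polysome 1 and fasted polysome 2 together. That last setting gave 199 in total RNA. With the replicate number as a fixed block across diets, where numbers do not pair the arrays, 309 genes passed in polysome RNA, among them Slc10a1 (limma adjusted p = 0.0218), and Hsd3b7 in total RNA did not (0.0602). Cyp7a1 did not pass with no filter (0.0557 in total and 0.0575 in polysome RNA), with only the arrays compared (0.0772 and 0.0688) or, in total RNA, with trend and robust priors (0.0603). The cause of these moves was not tested. Calls lost with no filter were those of Cyp27a1 (0.069) and Slc10a5 (0.0592) in polysome RNA, Amacr (0.0557) and Hsd3b7 (0.0654) in total RNA, Abcc4 (0.0678) in polysome RNA and Nr1h4 between fractions in fasted dams (0.0581). Dim probes such as those of Nr0b2 and Cyp8b1 limit what a change could show.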
